A study of Mus musculus with 6 samples.

Results

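The receptors of interleukin 1 (IL-1), interleukin 18 (IL-18) and their relatives were followed by name in Bach2 knockout and wildtype CD4 single-positive thymocytes of the mouse. Of 8 genes named (Il1r1, Il1r2, Il1rl1, Il1rl2, Il18r1, Il18rap, Il1rap and Sigirr), 6 had a probe set listed under a single gene symbol, each of them 1 probe set, among 19938 genes measured. Il1r1, the signalling IL-1 receptor, and Il1rl1, the IL-33 receptor chain also called ST2, were not analysed here. Of the 6 measured genes, Il1r2 fell in knockout thymocytes by 1.57 on the log2 scale, 2.97-fold between probe set values that were dim in knockout cells, and the other 5 did not pass the test. The call of Il1r2 held in 7 of the 14 alternative fits that tested it. Of all genes 0.567% were called.

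The samples were 3 arrays of wildtype and 3 of Bach2 knockout thymocytes, all male and of C57BL/6 background, and the design text states that each came from its own mouse. Wildtype cells were Ly5.1+ and knockout cells Ly5.1-, Ly5.1 being a form of CD45, the product of Ptprc. Both had developed in Rag1 knockout recipients, which lack T and B cells of their own and were lethally irradiated at 8 weeks of age. Each recipient was given equal parts of lineage-depleted marrow from 8-week-old knockout and wildtype males, and the thymocytes were sorted 2 months later. Since both genotypes matured in mixed chimeras, the comparison addresses what differs with the genotype of the cells themselves, although the Ly5.1 allele went together with genotype. The Bach2 protein is a DNA-binding repressor with a leucine zipper, known for holding back effector programmes in T cells.

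Receptors of this family carry immunoglobulin-like domains outside the cell. Most also carry a TIR domain inside it, through which a ligand-binding chain and an accessory chain together recruit the adaptor MyD88 and IRAK kinases and activate NF-kB. The family also holds brakes, namely Il1r2, a decoy that binds IL-1 and has no TIR domain, and Sigirr, an inhibitory receptor with a single immunoglobulin-like domain. In T cells these receptors are known from regulatory T cells, where activated cells carry Il1r2, and from helper and innate-like cells that respond to IL-18, IL-33 or IL-1.

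In the mouse 6 of the 8 genes lie together on chromosome 1, whereas Il1rap is on chromosome 16 and Sigirr on chromosome 7 (RefSeq gene table, GRCm38.p6). The 250 bases before the annotated start of 3 clustered genes are printed, that of Il1r2, which was called, and those of Il1rl2 and Il18rap, which were not. These are the measured genes of the cluster with a single start in the RefSeq promoter table. All are on the plus strand of RefSeq's GRCm38.p6, at chr1:40085843-40086092 for Il1r2, chr1:40324339-40324588 for Il1rl2 and chr1:40515112-40515361 for Il18rap, and capitals mark matches to the letters searched. Some Il1r2 transcript models begin further upstream than the start used here.
Il1r2: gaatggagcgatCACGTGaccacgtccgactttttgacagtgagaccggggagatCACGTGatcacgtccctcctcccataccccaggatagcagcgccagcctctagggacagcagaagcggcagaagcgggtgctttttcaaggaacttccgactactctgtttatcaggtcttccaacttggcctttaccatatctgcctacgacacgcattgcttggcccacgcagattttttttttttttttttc
Il1rl2: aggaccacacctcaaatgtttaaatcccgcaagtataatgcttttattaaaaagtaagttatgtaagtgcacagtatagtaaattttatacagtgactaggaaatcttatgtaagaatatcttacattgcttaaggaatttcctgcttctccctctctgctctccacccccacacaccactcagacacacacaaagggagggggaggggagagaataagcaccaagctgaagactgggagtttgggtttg
Il18rap: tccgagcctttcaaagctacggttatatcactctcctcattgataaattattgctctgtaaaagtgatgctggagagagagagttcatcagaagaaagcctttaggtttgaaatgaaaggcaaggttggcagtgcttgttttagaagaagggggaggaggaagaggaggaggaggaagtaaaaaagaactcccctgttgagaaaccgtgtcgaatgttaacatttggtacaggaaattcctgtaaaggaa

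The letters TGAGTCA, the core shared by AP-1 and Bach factor sites, were searched on both strands, as were TGTTTAC, a forkhead site, and CACGTG, an E-box that reads the same on both strands. The E-box was added after the Il1r2 sequence had been seen. Matches of different motifs did not overlap in these windows. Over 11 start sites of 7 of the 8 genes (Sigirr was not matched), TGAGTCA was in 0 windows, against 4.46% of all 32851 windows of this length. With 11 windows, some of Il18r1 overlapping each other, a count of 0 does not set these genes apart from that share. CACGTG was in 1 window, that of Il1r2, where it occurred at positions -238 to -233 and -195 to -190 from the start. It was in 6.02% of all windows, and 0.429% of all windows held it at least 2 times, as the Il1r2 window did. The forkhead letters were in 1 window, of Il1rl1, and in 3.17% of all. These are matches of letters in a short window and not measured binding.

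**Figure D1:**
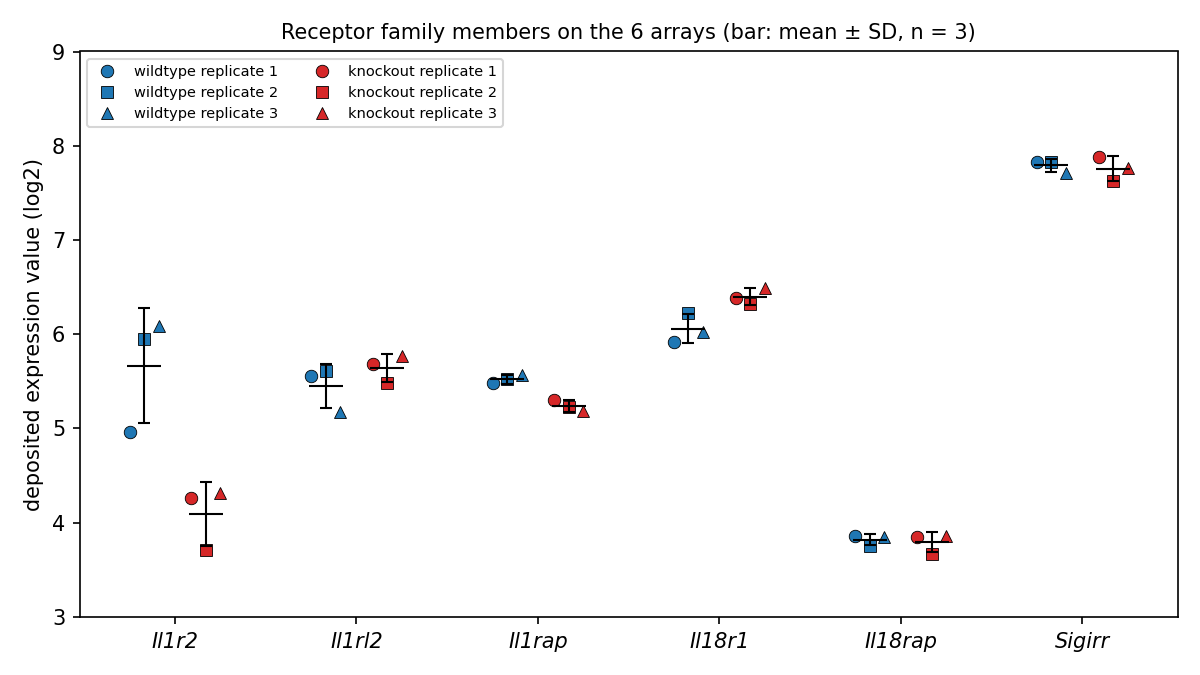
Deposited log2 expression value (vertical axis) of the 6 measured receptor genes on each array, blue for wildtype and red for knockout, one symbol shape per replicate; horizontal bars and whiskers are the mean and SD of 3 arrays. Il1r2 lies between 4.97 and 6.09 in wildtype and between 3.71 and 4.32 in knockout cells, without overlap.

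Of the brakes of the family, the decoy receptor Il1r2 (probe set 10345752) had log2 values of 4.97, 5.94 and 6.09 on wildtype arrays 1 to 3, against 4.26, 3.71 and 4.32 on knockout arrays 1 to 3. The groups did not overlap, and wildtype replicate 1 lay nearest to the knockout. The 3 knockout values, and the mean of 4.88 over the 6 arrays, were under 4.94, the median of all values and the limit used here for dim genes. The values used here hold no detection call, so it is not known whether the knockout level stood above background, and the fold is one between these values only. Wildtype cells averaged 5.67 ± 0.61 and knockout cells 4.09 ± 0.34 (SD, n = 3 each). The difference was -1.57 ± 0.27 (limma standard error; 95% interval -2.17 to -0.97) with an adjusted p of 0.0343 by limma over all genes, and it was the tenth largest fall of the 19938 genes. In bulk samples fewer cells of a type and less RNA per cell cannot be told apart. Of all genes 0.567% were called at this threshold, an adjusted p under 0.05 in either direction, and 0.216% were called lower. Of the 6 receptor genes 1 was called. They were chosen with earlier results of these data known, so setting these shares side by side gives no test. The call depended on single arrays: of 6 fits that left out an array it held without wildtype replicate 1 (adjusted p = 0.00113) and was lost without wildtype replicate 2 (0.116) or 3 (0.164) and without knockout replicate 1 (0.0714), 2 (0.13) or 3 (0.0834). It was also lost with all 35556 probe sets in the fit (0.355) and without moderation of the variances (0.616).

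Sigirr, the other brake, which dampens IL-1 and Toll-like receptor signals, did not pass the test. Its wildtype values were 7.83, 7.83 and 7.71, against knockout values of 7.88, 7.62 and 7.76, and the groups overlapped. The difference was -0.03 (95% interval -0.26 to 0.19; limma, adjusted p = 0.998). Without knockout replicate 2 the sign turned, at 0.03.

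Il1rap, the accessory chain that the receptors of IL-1, IL-33 and IL-36 share, was a little lower in each knockout array without passing the test. The wildtype arrays read 5.48, 5.52 and 5.57 and the knockout arrays 5.30, 5.22 and 5.18, without overlap. The spread was narrow, with an SD of 0.05 in wildtype and 0.06 in knockout cells, and the difference of -0.29 (95% interval -0.49 to -0.08) had an unadjusted p of 0.0101 and an adjusted p of 0.409 by limma. Il1rl2, which binds the IL-36 cytokines, read 5.55, 5.61 and 5.18 in wildtype cells, against 5.68, 5.48 and 5.76 in knockout cells. These overlapped, with a difference of 0.19 (95% interval -0.10 to 0.49; limma, adjusted p = 0.923).

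Il18r1, the chain that binds IL-18, read 5.92, 6.22 and 6.03 in wildtype cells, against 6.38, 6.32 and 6.49 in knockout cells. All knockout values lay above all wildtype values, by 0.34 in the mean (95% interval 0.10 to 0.58), opposite in sign to Il1r2 of the same cluster. With an unadjusted p of 0.0104 and an adjusted p of 0.413 by limma it did not pass. Il18rap, the accessory chain of the IL-18 receptor, read 3.86, 3.76 and 3.85 in wildtype cells, against 3.85, 3.67 and 3.86 in knockout cells. That is under the limit for dim genes, and the groups overlapped. Its difference was -0.03 (95% interval -0.24 to 0.19; limma, adjusted p = 0.998), with the sign turned, at 0.03, without knockout replicate 2. Whether the differences of Il18r1 and Il18rap differ from each other was not tested.

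**Figure D2:**
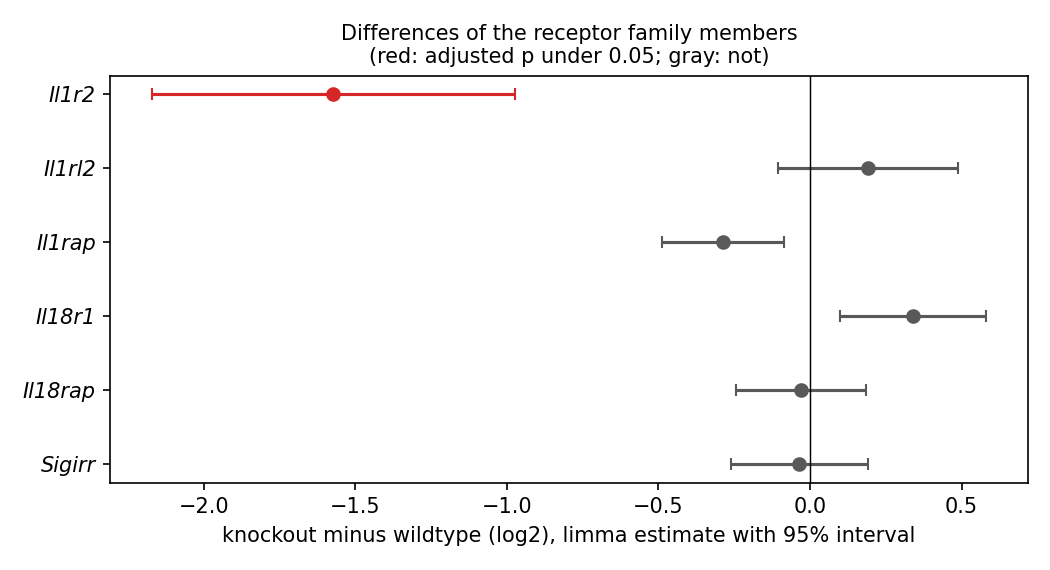
Knockout minus wildtype difference on the log2 scale (horizontal axis) for each measured receptor gene, as the limma estimate with its 95% interval from 3 arrays per genotype; red marks an adjusted p under 0.05. The interval of Il1r2 runs from -2.17 to -0.97, and those of the other 5 genes lie within -0.49 to 0.58.

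Across the 6 genes, 4 differences were below 0 and 2 above. By limma 1 was called lower and 0 higher, and at an unadjusted p under 0.05 there were 3, Il1r2 and Il1rap lower and Il18r1 higher. Of all genes 6.91% were at an unadjusted p under 0.05, 3.87% lower and 3.04% higher, which is also the background of the list counts at that threshold further on. In these 3 genes the values of the genotypes did not overlap, which was so for 11.7% of all genes. The median difference was -0.03 over the family and -0.01 over all genes, and the median size of the difference, sign aside, was 0.24 and 0.08. With 6 members and 1 call, these counts describe the genes and say nothing of the family as a whole.

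The genes that flank the receptor cluster did not pass the test. The 4 measured members on chromosome 1 (Il1r2, Il1rl2, Il18r1 and Il18rap) are consecutive among the tested genes in gene order, between Map4k4 and the sodium-proton exchanger gene Slc9a4. Map4k4, a kinase gene next to Il1r2, had wildtype values of 8.60, 8.96 and 8.69 that overlapped its knockout values of 8.81, 8.87 and 8.80. Slc9a4, next to Il18rap, likewise overlapped, with 4.38, 4.11 and 4.33 against 4.31, 4.09 and 4.21. Of the 5 tested genes on each side, 0 of 10 were called by limma, and 4 were higher and 6 lower. Rnf149, a ubiquitin ligase gene that differed by 0.56 (adjusted p = 0.185), was the 1 flanking gene at an unadjusted p under 0.05 and the 1 whose groups did not overlap. Ptprc, whose allele marked the genotypes, is on the same chromosome with 555 tested genes between it and the cluster. The sources used here do not give how far the Ly5.1 interval reaches, and its part in these differences was not tested.

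**Figure D3:**
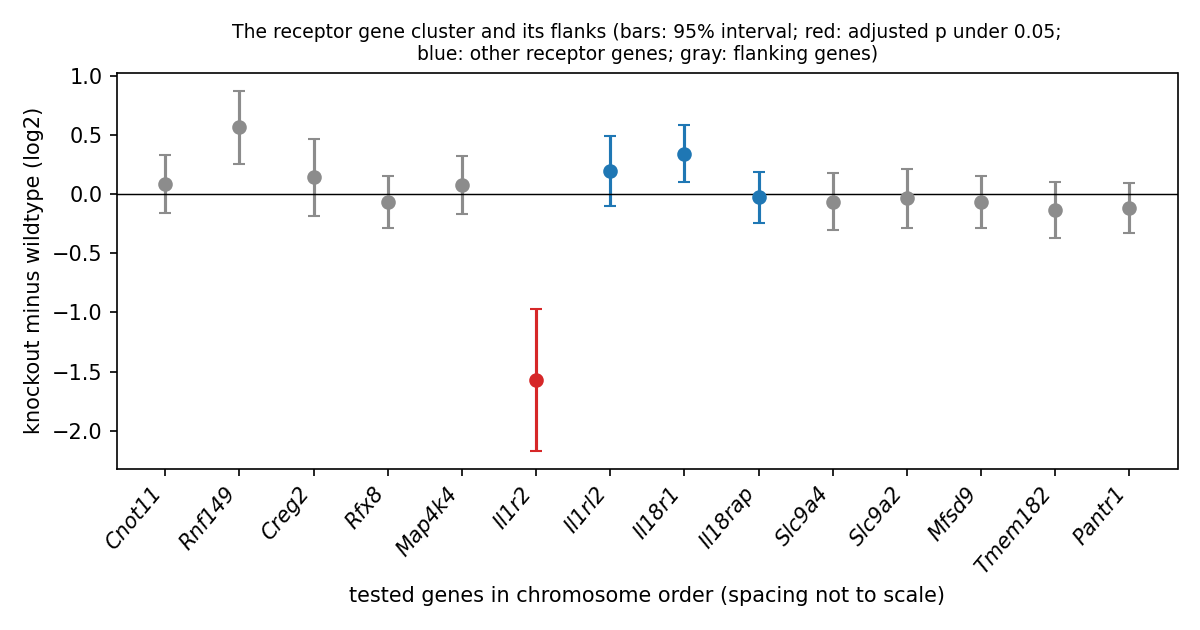
Knockout minus wildtype difference on the log2 scale (vertical axis, with 95% intervals) for the 4 measured genes of the receptor cluster on chromosome 1 and the 5 tested genes on each side, in gene order with spacing not to scale. Il1r2 (red) stands at -1.57, and the other 3 receptor genes (blue) and 10 flanking genes (gray) lie between -0.13 and 0.56.

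The genes whose profile over the 6 arrays was most like that of Il1r2, by the root mean square difference after each gene was centred on its own mean, were Ikzf2 at 0.19, Il2ra at 0.21 and Lrrc32 at 0.21 on the log2 scale. Il1r2 was the only member with a range of at least 1 over the arrays, the limit set for this search. Ikzf2 encodes the Ikaros family factor Helios, Il2ra the CD25 chain that binds interleukin 2 and Lrrc32 a protein that holds latent TGF-beta on the cell surface, and all are known from regulatory T cells. Ikzf2 read 7.60, 8.45 and 8.38 in wildtype cells, against 6.59, 6.56 and 6.75 in knockout cells. Il2ra read 7.16, 8.43 and 8.54, against 6.31, 5.80 and 6.24, and Lrrc32 read 5.86, 6.93 and 7.05, against 4.88, 4.64 and 4.74. None of these groups overlapped. As for Il1r2, the wildtype array with the least signal was replicate 1 for each of the 3 genes. Of the knockout arrays, replicate 2 was the lowest for all 4 genes, for Ikzf2 only narrowly (6.56 against 6.59 in replicate 1). Since the 3 genes were picked for their nearness to the Il1r2 profile, these shared features follow largely from that choice. Likeness over 6 arrays is a description of profiles and gives no test.

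**Figure D4:**
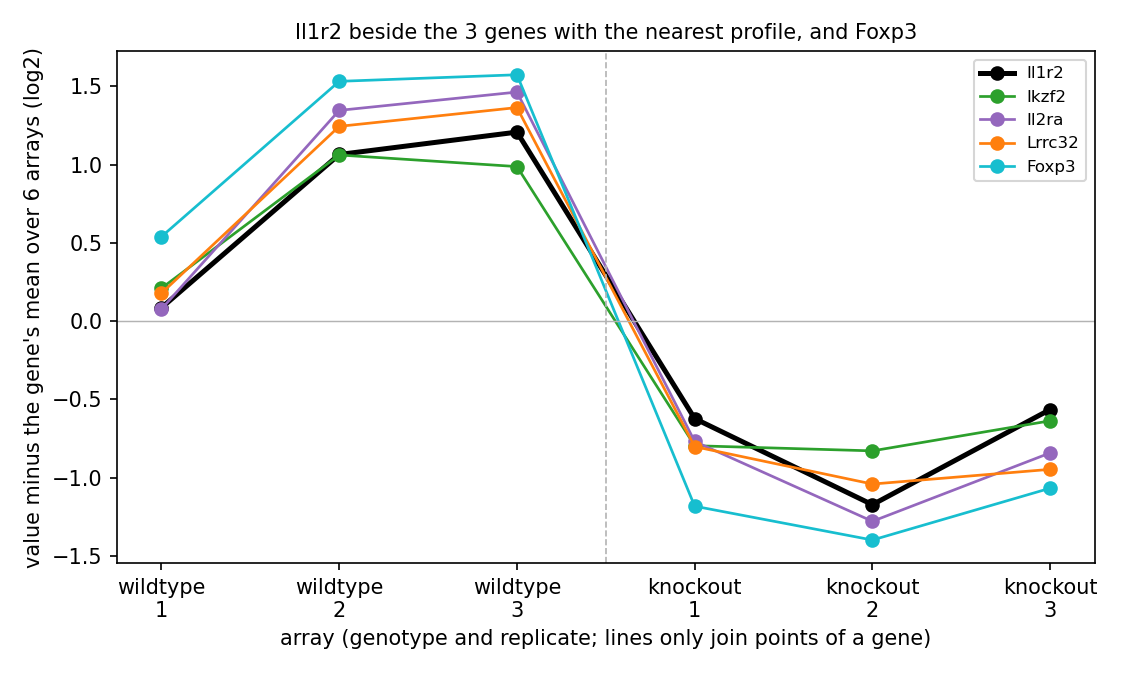
Value of each gene minus its own mean over the 6 arrays (vertical axis, log2) for Il1r2 (black), the 3 genes with the nearest profile and Foxp3; lines join points of a gene and give no order to replicates. All 5 genes are above their mean on the 3 wildtype arrays and below it on the 3 knockout arrays, and among wildtype arrays replicate 1 is the lowest in each. For the 3 nearest genes this follows largely from how they were picked.

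A list of 15 regulatory T cell genes was read beside Il1r2, which it does not hold. Of these, 5 fell and 1 rose by limma, with a median difference of -1.04 against -0.01 over all genes, and 11 had groups that did not overlap. Of all genes 0.567% were called in either direction, 0.216% were called lower and 11.7% did not overlap. These shares are also the background of the same counts in the lists that follow. At an unadjusted p under 0.05 there were 12, 10 lower and 2 higher. The list was drawn up with earlier results of these data known. Foxp3, the transcription factor that defines the lineage, read 7.30, 8.29 and 8.33 in wildtype cells, against 5.58, 5.36 and 5.69 in knockout cells, a fall of 2.43 on the log2 scale (adjusted p = 0.00148). The other falls were Il2ra (-1.93), Lrrc32 (-1.86), Ikzf2 (-1.51) and Nt5e (-1.04), and the rise was Izumo1r (0.92), the last 2 named after their values were seen. Summed over the 15 genes, the log2 level was 107.2 to 118.2 in wildtype and 101.2 to 102.5 in knockout arrays, with 107.2 in wildtype replicate 1. The part of regulatory T cell number in the Il1r2 difference was not tested. Foxp3 stayed called whichever of the 6 arrays was left out, but its call was lost with all probe sets (adjusted p = 0.0743) and without moderation (0.393). Those of Il2ra, Lrrc32 and Ikzf2 were lost under both settings too, and that of Il2ra also with a trended and robust prior (0.105). Without moderation 0 genes were called lower, so Nt5e was lost there as well. Of the 6 fits without an array, Il2ra was called only without wildtype replicate 1, and Nt5e only without wildtype replicate 1 or 2. Ikzf2 was lost without wildtype replicate 3 (adjusted p = 0.0617). Lrrc32 was lost there (0.0657) and without knockout replicate 2 (0.0541). The list's count of falls was 9 without wildtype replicate 1, 4 without wildtype replicate 2, 1 without wildtype replicate 3, 3 without knockout replicate 1 or 3 and 2 without knockout replicate 2, and Izumo1r was called in 1 of these fits, without wildtype replicate 2.

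Neutrophils and monocytes, which also carry Il1r2, were read from 11 marker genes, 10 of them under the limit for dim genes. Lyz2, a lysozyme of myeloid cells that differed by 1.39, rose and 0 fell, a call lost without wildtype replicate 2 (adjusted p = 0.0823) or 3 (0.153) and without knockout replicate 1 (0.0821) or 2 (0.119), and with all probe sets (0.298) or no moderation (0.616). At an unadjusted p under 0.05 there were 5, 3 higher and 2 lower. Besides Lyz2 the higher genes were S100a8 (0.97, adjusted p = 0.456) and S100a9 (0.78, adjusted p = 0.34), which encode calcium-binding proteins of myeloid cells. Without knockout replicate 2, the knockout array where it was lowest, S100a8 passed as higher. The lower genes were Itgam (-0.33, adjusted p = 0.528), an integrin chain, and Cxcr2 (-0.32, adjusted p = 0.493), a chemokine receptor of neutrophils. Groups did not overlap in 4 of the 11 genes. Itgam and Cxcr2 among them had the sign of Il1r2, and Lyz2 and S100a9 the opposite sign. The summed log2 level was 40.5 to 43.4 in wildtype and 43.2 to 46.1 in knockout arrays, which overlapped, and the part of these cells in the Il1r2 difference was not tested. Csf3r, the receptor of granulocyte colony-stimulating factor, was at 3.67 to 4.17 in wildtype and 3.75 to 3.997 in knockout cells, and Ly6g, a neutrophil surface protein, at 3.59 to 3.71 and 3.60 to 3.75, both dim. Of 11 genes of mast cells, basophils and group 2 innate lymphoid cells, known for the IL-33 receptor, 0 were called by limma and 3 had an unadjusted p under 0.05, 1 higher and 2 lower. Their summed level was 49.8 to 52.6 in wildtype and 50.4 to 50.7 in knockout arrays. Il13, a type 2 cytokine gene, differed by 0.51 (adjusted p = 0.0961) and Il5 by -0.30 (0.544). B cell and dendritic cell genes also held 0 calls of 9, with 0 at an unadjusted p under 0.05 and sums of 37.4 to 38.9 and 38.5 to 39.3. Itgax differed by 0.31 and Cd79a by 0.30.

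Natural killer T and other innate-like T cells, which are known for their IL-18 receptor, were read from 9 genes. By limma 0 were called, and 3 had an unadjusted p under 0.05, all of them lower. These were Il2rb, Eomes and Cd160, the last at -0.44 (adjusted p = 0.398) without overlap. The median difference of the list was -0.27. The summed log2 level was 48.6 to 49.5 in wildtype and 45.5 to 46.9 in knockout arrays, which did not overlap. Zbtb16, which encodes the factor PLZF of natural killer T cells, differed by 0.03, the highest difference of the list. Tbx21, which encodes T-bet, differed by -0.04 (adjusted p = 0.998 for both genes), and the groups of both overlapped. Zbtb16 and Tbx21 were named after their values were seen. Eomes, a transcription factor of cytotoxic and innate-like cells, differed by -0.70 (adjusted p = 0.106), and Il2rb, a chain of the interleukin 2 and 15 receptors, by -0.76 (adjusted p = 0.181). Both passed without wildtype replicate 1 (adjusted p = 0.0131 and 0.00372). Of the double-positive thymocyte and CD8 lineage list, 0 of 7 genes were called and 3 had an unadjusted p under 0.05, 2 higher and 1 lower. Its sums were 47.4 to 49.7 in wildtype and 47.7 to 55.2 in knockout arrays, the highest in knockout replicate 3. Runx3, the only lower gene of this list, differed by -0.55 (adjusted p = 0.113, or 0.0386 with a trended and robust prior). Rag1 differed by 1.27 (adjusted p = 0.591), with groups that overlapped. The median difference of this list was 0.37. The part of these cells in the Il18r1 values was not tested.

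The ligands of the family were dim in these cells. Of 11 genes for ligands and soluble antagonists, 10 lay under the limit for dim genes, 0 were called by limma and 0 had an unadjusted p under 0.05. Their median difference was -0.06, and the range was -0.22 to 0.14. The smallest p belonged to Il1f9, which encodes an IL-36 cytokine, at a difference of -0.22, and to Il33 at -0.19. Il18bp, a secreted protein that binds and neutralises IL-18, was the 1 gene above the limit (named after its values were seen), with wildtype values of 7.10, 7.66 and 7.43 that overlapped its knockout values of 7.30, 7.30 and 7.42. Il1b was dim, at 3.67 to 3.95 in wildtype and 3.63 to 3.92 in knockout arrays. Of 7 genes that process or release the ligands 0 were called and 0 had an unadjusted p under 0.05, with a median difference of 0.01. Aim2, a DNA sensor of the inflammasome, differed by -0.30 and Casp1, the protease that matures IL-1 beta and IL-18, by 0.18.

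The signalling genes below the receptors held 0 calls as well. Of 14 proximal genes, from MyD88 to the TAB proteins, 1 had an unadjusted p under 0.05 and the median difference was 0.01. That gene was Irak2, a kinase-like adaptor of IL-1 and Toll-like receptors, with 6.21, 6.62 and 6.51 in wildtype cells, against 5.92, 5.84 and 5.98 in knockout cells. Its groups did not overlap, and it differed by -0.53 ± 0.12 (limma standard error; adjusted p = 0.115). Without wildtype replicate 1 it passed (adjusted p = 0.0312). Myd88, the adaptor that every signalling receptor of the family shares, read 7.76, 7.64 and 7.63, against 7.83, 7.88 and 7.82, a difference of 0.17 (adjusted p = 0.833). Groups did not overlap in 3 of the 14 genes, against 11.7% of all genes. These were Irak2, which was lower, and Myd88 and Irak1 (0.08), which were higher. Among 12 kinases and NF-kB subunits 0 were called by limma and 1 had an unadjusted p under 0.05, with a median of 0.07. Map2k3, a kinase that activates p38, differed by 0.31 (adjusted p = 0.431) and Relb by 0.19 (0.847).

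Of 12 feedback and target genes of NF-kB, 0 were called by limma and 2 had an unadjusted p under 0.05, both lower. Bcl3, an atypical member of the IkB protein family, read 9.20, 9.18 and 9.23 in wildtype cells, against 8.91, 8.87 and 8.83 in knockout cells. Its groups did not overlap, and the difference was -0.33 (adjusted p = 0.243, or 0.0467 with a trended and robust prior). Birc3, a ubiquitin ligase of the pathway, differed by -0.20 (adjusted p = 0.721). Groups did not overlap in 4 of the 12 genes, against 11.7% of all genes. These were Bcl3, Birc3, Nfkbia (-0.19) and Tnip1 (-0.175), all lower in knockout cells. The largest difference was that of Ccl5, at -0.90 (adjusted p = 0.789), whose groups overlapped. The median of this list was -0.04, close to the -0.01 of all genes. Il1rapl1 and Il1rapl2, the distant receptor relatives known from neurons, were dim and differed by -0.17 and 0.13 (adjusted p = 0.947 and 0.928).

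The identity of the samples was read from Bach2 and from lineage genes. Bach2 was at 7.89 to 8.20 in wildtype and 6.42 to 6.52 in knockout arrays (adjusted p = 0.000156), and Ptprc differed by 0.03. Cd4 was bright in both genotypes, at 10.3 to 10.4, and Cd8a was at 7.67 to 7.86 in wildtype and 7.67 to 8.90 in knockout arrays, the highest in knockout replicate 3. Cd8b1, the partner chain of Cd8a, was at 8.96 to 9.14 in wildtype and 8.77 to 9.55 in knockout arrays. Both CD8 genes lay above the limit for dim genes on all arrays, and the purity of the sorted cells was not tested. Of 9 CD4 single-positive genes 0 were called by limma and 2 had an unadjusted p under 0.05, Cd28 at 0.25 and Klf2 at -0.23. Arrays correlated at 0.981 to 0.988 within wildtype and 0.990 to 0.991 within knockout, and at 0.984 to 0.989 between genotypes, so that wildtype arrays were no more alike than arrays of different genotype (Pearson's r across probe sets, a description only).

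**Figure D5:**
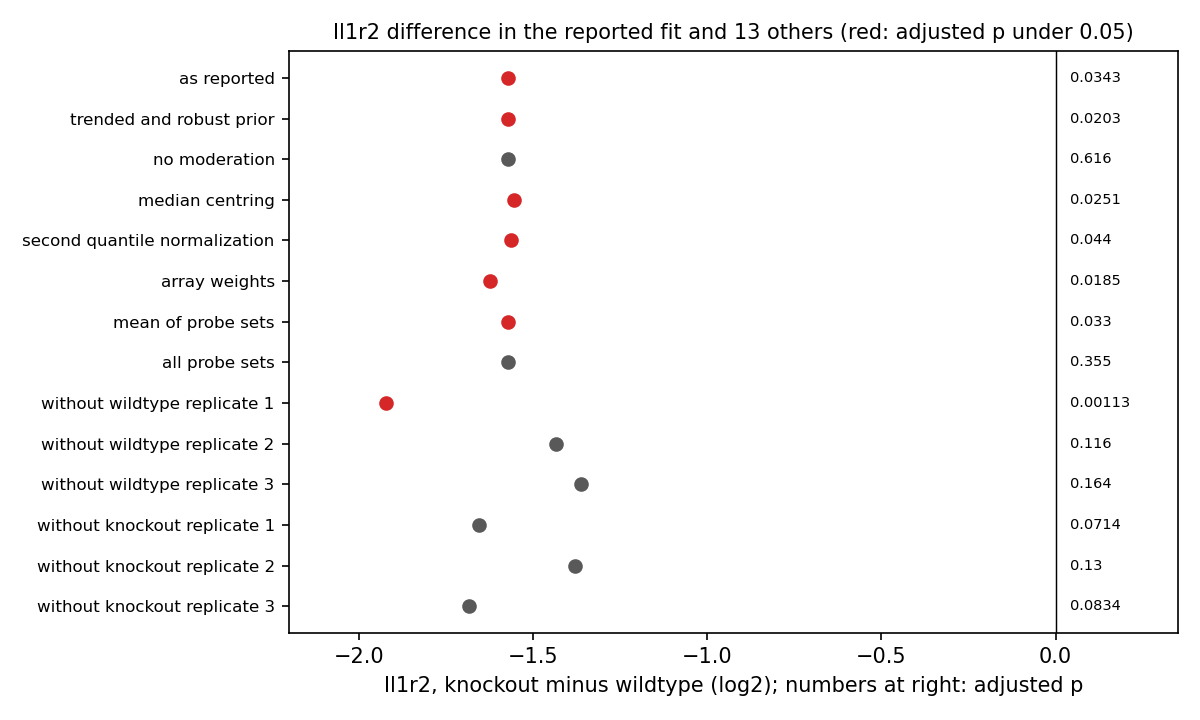
Difference of Il1r2 between knockout and wildtype on the log2 scale (horizontal axis) as reported and under 13 other settings (rows; the replicate block is left out), with the adjusted p of each at the right; red marks an adjusted p under 0.05. The difference lies between -1.92 and -1.36 in all of them, while the adjusted p runs from 0.00113 to 0.616.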

How the data were processed

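The authors deposited log2 values, 1 per probe set and array; the submitters' processing notes name RMA and Partek without versions, and the scale was read from the values (1.10 to 13.2, array medians 4.93 to 4.97). RMA brings the probe intensities of all arrays to 1 distribution before they are summarised, so a shift of all genes would not be seen. The sources used here do not give the genome build. Arrays give no depth; their number limits the precision.

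Gene symbols are those of the platform annotation and may be outdated. A single symbol was listed for 21789 of 35556 probe sets, and where a gene had several, the one with the highest mean was kept. In R 4.3.3, limma 3.58.1 (lmFit and eBayes, two-sided) was fitted over 19938 genes; p-values were adjusted by Benjamini-Hochberg and called under 0.05. The procedure was tested on simulated data. Intervals are 95% limma intervals, not adjusted for the number of genes. Promoter sequences are RefSeq's, GRCm38.p6. Python 3.11.15 with matplotlib 3.10.9 drew the figures.

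The members and lists were chosen with earlier results of these data known. Named are all members, Bach2, Ptprc, up to 4 called genes per list (otherwise the 2 smallest p), 5 flanking genes on each side, and the 3 nearest profiles for members with a range of at least 1. Genes given beyond this (such as Csf3r, Ly6g, S100a8, S100a9, Itgam, Cxcr2, Zbtb16, Tbx21, Cd160, Ccl5, Nfkbia, Tnip1, Irak1, Il1b, Cd4, Cd8a, Cd8b1, Nt5e and Izumo1r) were chosen after their values were seen. Alternatives were other priors, filters, scalings, array weights, probe set rules, the replicate number as a block and leaving out each array.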

Additional observations from a re-analysis of the deposited data

How the results depend on the processing

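Over all genes 70 were higher and 43 lower. The count of lower genes was 73 with a trended, robust prior. By limma without moderation 1 gene was higher and 0 were lower (unadjusted p under 0.05 in 572 higher and 708 lower genes), and with all probe sets 29 were higher and 8 lower. Leaving out an array gave 29 to 82 higher and 18 to 66 lower. The 1 receptor gene called lower was Il1r2. Lower receptor genes numbered 0 without moderation and with all probe sets (3 of 6 at an unadjusted p under 0.05 in each), 0 without dim genes, where Il1r2 was not tested (2 of 4 unadjusted), and 0 to 1 when an array was left out. Il1r2 kept its direction in all 14 alternatives that tested it and passed in 7, with unadjusted p under 0.05 in 14. Il1rap and Il18r1 kept theirs in 15 of 15, with unadjusted p under 0.05 in each and 0 calls. When an array was left out, Il18rap ranged from -0.061 to 0.032, Sigirr from -0.099 to 0.031, Creg2 from -0.024 to 0.26 and Slc9a2 from -0.12 to 0.034, each changing sign.

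Replicate numbers are shared between genotypes, but the design text gives separate mice. Deviations from the group means correlated at 0.21, 0.11 and -0.07 between arrays numbered 1, 2 and 3, so the numbers were not taken to pair the samples. With the replicate block 79 genes were higher and 55 lower, and Il1r2 had an adjusted p of 0.0274. Of the other genes named, Rag1 (adjusted p = 0.00864) and Eomes (0.039) passed with the block and not without it. Dim probe sets limit what can be said of Il1r2 in knockout cells, of Il18rap and of the ligands.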
